A study of Zea mays with 8 samples.

Results

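The maize gene kn1 (knotted1) was followed through immature ears of the inbred lines B73 and Mo17, of their wild-type hybrid and of a hybrid that is mutant for mop1. It was taken as the row Zm00001d033859.RefGen_V4, 1 of 39498 gene IDs in each count table, and was present in all 8. The name of this ID came with the choice of the gene and was not checked against an annotation, because none of the gene IDs matched the RefSeq gene table of assembly Zm-B73-REFERENCE-NAM-5.0 (0 matches). In that table kn1 is a protein-coding gene that no other entry overlaps, and 1 entry lies between it and the related homeobox gene knox3. RNA-seq libraries of total RNA were made from 4 groups with 2 libraries each. B73 and Mo17 are wild-type inbred parents. The wild-type F1 hybrid (WTF1) is labelled Mo17/B73 and +/+, and the mutant F1 hybrid (mop1F1) is labelled B73/Mo17 and mop1/mop1, so the order of the parents differs along with mop1. The labels give no mop1 allele, plant age, ear size or number of plants per library. Whether replicate libraries stem from different plants is also not stated, and the p-values then cover only the spread seen between replicates, part of which may be technical.

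KN1 is a transcription factor of the TALE homeodomain class and the founding member of the plant KNOX family. In maize it is known from the indeterminate cells of shoot and inflorescence meristems and is switched off where leaves and other lateral organs start. It works with BELL-type homeodomain partners, and it is known to act on ga2ox1, which encodes an enzyme that inactivates gibberellin. Loss of kn1 function reduces branches and spikelets, and its expression outside meristems makes the knots on leaf blades that gave the gene its name. An immature ear carries inflorescence, spikelet and floral meristems beside young organs. MOP1 copies RNA into double strands from which small RNAs are cut that direct DNA methylation, and by its title the study asked how methylation in the CHH context arises and bears on expression.

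Transcripts of kn1 were abundant in every library, with a higher level in each hybrid library than in any parental library. The level is given as CPM, the counts of kn1 scaled to the total over all gene IDs of the library. The B73 libraries had 99.8 and 95.3 CPM. The Mo17 libraries had 137.6 and 158.2 CPM. The WTF1 libraries had 412.5 and 310.9 CPM, and the mop1F1 libraries had 229.3 and 336.6 CPM, each for replicates 1 and 2. All 4 hybrid libraries thus lay above all 4 parental libraries, and both Mo17 libraries lay above both B73 libraries, while the hybrids overlapped each other. The group means were 97.5 ± 3.14 CPM in B73, 147.9 ± 14.6 CPM in Mo17, 361.7 ± 71.9 CPM in WTF1 and 283.0 ± 75.8 CPM in mop1F1 (SD, n = 2 each). In whole ears, a larger share of cells that express kn1 and more kn1 RNA per cell cannot be told apart.

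**Figure D1:**
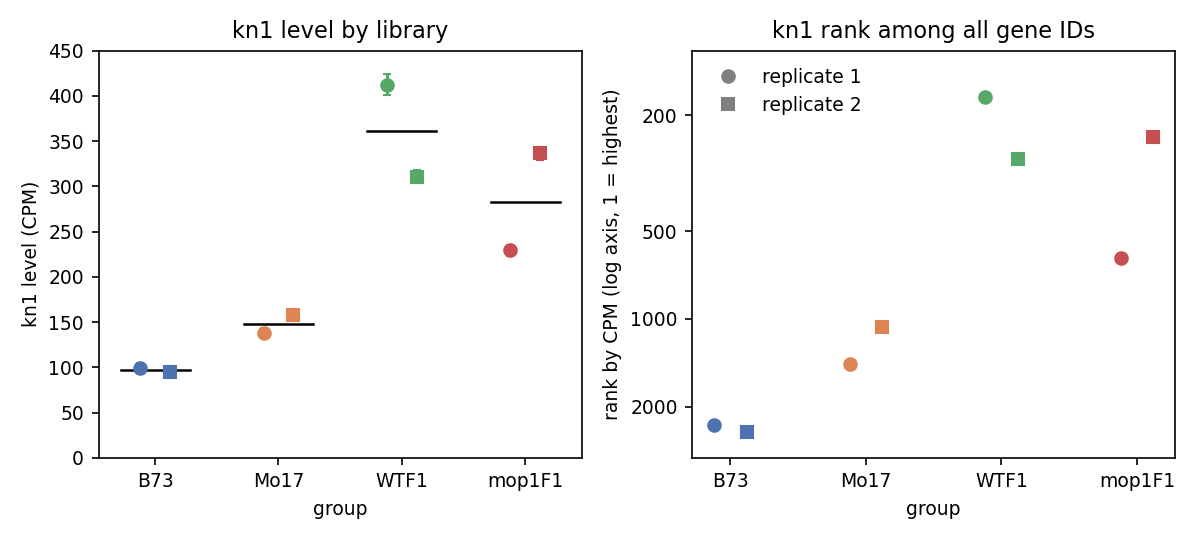
Level of kn1 in CPM (left) and its rank by CPM among all gene IDs (right, log axis) in each library of the 4 groups. Points are libraries, bars are exact Poisson 95% intervals of the counts and black lines are group means. The 4 hybrid libraries lie between 229.3 and 412.5 CPM, all above the parental libraries, of which the highest has 158.2 CPM.

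The depth behind these levels was ample. Totals over gene IDs ran from 11723096 to 26199577 counts per library, and 1635 to 8765 of them fell on kn1. Exact Poisson 95% intervals, which cover counting error only, overlapped for the B73 libraries, with 95.3 to 104.4 CPM for replicate 1. In Mo17 they were 132.0 to 143.4 CPM and 152.3 to 164.3 CPM. In WTF1 they were 401.0 to 424.3 CPM and 304.2 to 317.7 CPM, and in mop1F1 223.3 to 235.6 CPM and 329.6 to 343.7 CPM. The intervals of Mo17, WTF1 and mop1F1 did not overlap within a group, and at such counts they are narrow, so the spread between replicates and not counting error is the error to set differences against.

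The rank of kn1 moved with its level. Counted from the highest CPM among the 39498 IDs, kn1 stood at 2317 and 2445 in B73 and at 1423 and 1062 in Mo17. It stood at 173 and 283 in WTF1 and at 617 and 237 in mop1F1. Among the IDs with at least 1 count, that placed kn1 in the top 8.85% and 9.42% in B73, the top 5.54% and 4.11% in Mo17, the top 0.635% and 0.979% in WTF1 and the top 2.18% and 0.824% in mop1F1. These ranks are by reads and not per length, since the files hold no gene lengths. The same gene can thus be compared between libraries, but its place among other genes also depends on their lengths.

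For tests, counts were scaled with TMM factors and fitted for all 8 libraries together with edgeR. A gene was called at a Benjamini-Hochberg adjusted p below 0.05. Between the parents kn1 was not called. The log2 fold change of B73 against Mo17 was -0.53 ± 0.28 (SE), with a 95% interval from -1.19 to 0.12 and an adjusted p of 0.316 (edgeR quasi-likelihood test). Of the 24511 IDs tested, 10.4% were called between the parents. In a fit of the 4 parental libraries alone, which leaves out the wider spread of the hybrids, kn1 was called at nearly the same size (log2 fold change -0.54, edgeR, adjusted p = 0.0118), but so were 39.8% of the 23444 IDs tested there. Both Mo17 libraries lay above both B73 libraries at 38.7% of the 15641 IDs with a mean of at least 10 CPM, so this arrangement is common. Mo17 libraries were mapped to the Mo17 genome and B73 libraries to B73, per the names of the count tables, so parent and genome cannot be told apart here.

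In the wild-type hybrid the measured level of kn1 was above both parents. Records set aside for low alignment quality were 8.01% to 9.35% in the hybrids, 1.76% and 2.24% in B73, and 5.76% and 6.06% in Mo17. IDs with at least 1 count numbered 27249 to 28914 in the hybrids and 25709 to 26173 in the parents. Count table names with GP1 or GP5, of unexplained meaning, occur only in the hybrids. Hybrid status cannot be told apart from these differences, whose part was not tested. Against B73 the TMM-scaled level was 3.70-fold higher, a log2 fold change of 1.89 ± 0.29 (SE; 95% interval 1.21 to 2.56; edgeR, adjusted p = 0.0199). In this comparison 3.25% of IDs were called in either direction and 2.05% were higher in WTF1. Against Mo17 the level was 2.56-fold higher, a log2 fold change of 1.35 ± 0.29 (SE; 95% interval 0.69 to 2.02; edgeR, adjusted p = 0.0435), where 4.5% of IDs were called in either direction and 3.59% were higher in WTF1. Hybrid libraries were mapped to B73 and Mo17 libraries to Mo17. Group and genome thus cannot be told apart where either hybrid is compared with Mo17. The median of all IDs tested lay at 0.033 against B73 and 0.048 against Mo17, and 7.65% and 12.6% of IDs had a log2 fold change at or above that of kn1. Leaving out either replicate of B73 or of Mo17 ended the call against B73, at log2 fold changes of 1.84 to 1.93. Each of these fits called a smaller share of IDs than the 3.25% with all 8 libraries. The call against Mo17 ended with scaling by the total count alone (edgeR, adjusted p = 0.0645), where 4.35% of IDs were called. In a fit of WTF1 and Mo17 alone it ended as well (edgeR, adjusted p = 0.0731), where 3.22% were called. It also ended when either replicate of B73, either of Mo17 or WTF1 replicate 1 was left out. These leave-out fits too called a smaller share of IDs than the 4.5% with all 8 libraries. The log2 fold changes in all these settings were 1.19 to 1.49.

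The mutant hybrid also had more kn1 than B73. The TMM-scaled level was 3.02-fold higher, a log2 fold change of 1.59 ± 0.29 (SE; 95% interval 0.92 to 2.26; edgeR, adjusted p = 0.0318), where 3.5% of IDs were called and 2.45% were higher in mop1F1. Against Mo17 the log2 fold change was 1.06 ± 0.28 (SE; 95% interval 0.40 to 1.72) and was not called (edgeR, adjusted p = 0.0769), where 5.52% of IDs were called. This comparison stayed uncalled in 13 of the 17 alternative settings. DESeq2 called it (log2 fold change 1.03, adjusted p = 0.0183), along with 10.9% of IDs, and edgeR did so without WTF1 replicate 1 (1.11, adjusted p = 0.0353) or mop1F1 replicate 1 (1.28, adjusted p = 0.0366), where 6.78% and 10.2% of IDs were called. The call against B73 ended in a fit of mop1F1 and B73 alone (edgeR, adjusted p = 0.11), where 0% of 23629 IDs were called. It also ended when either replicate of B73 or of Mo17 was left out. Each of these leave-out fits called a smaller share of IDs than the 3.5% with all 8 libraries. In all of these fits the log2 fold change stayed at 1.55 to 1.64. The comparisons of WTF1 and mop1F1 with a parent share that parent's libraries, so their values stand side by side and are not independent.

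**Figure D2:**
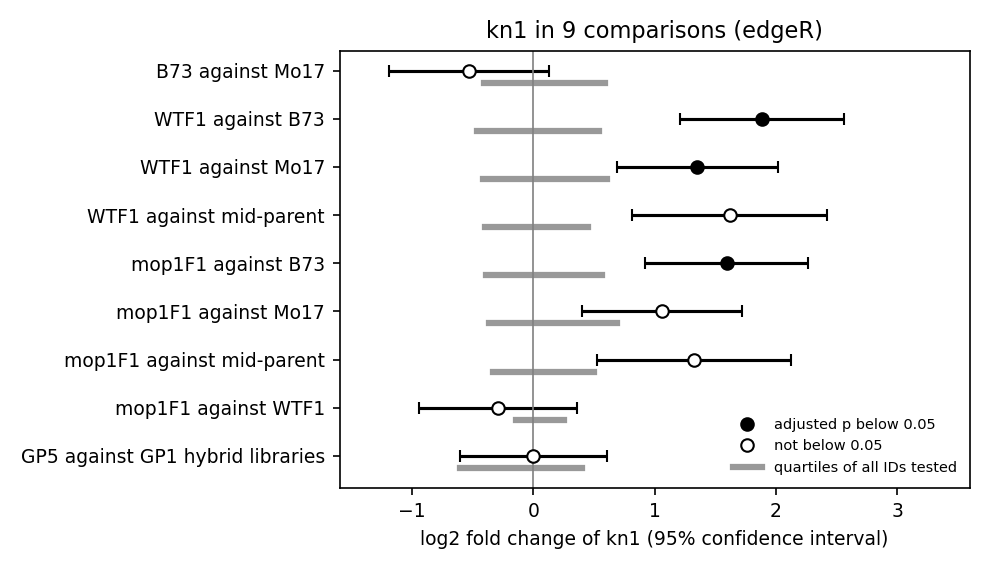
Log2 fold change of kn1 with its 95% interval in 9 comparisons, filled where the adjusted p was below 0.05, with grey bars from the lower to the upper quartile of all IDs tested. The estimates of both hybrids against B73, Mo17 and the mid-parent lie between 1.06 and 1.89 and their intervals above 0, while those of mop1F1 against WTF1 and of GP5 against GP1 include 0.

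Each hybrid library also stood above the parental mean by itself. On the TMM scale, WTF1 replicates 1 and 2 had 3.42 and 2.62 times the mean of the 4 parental libraries. The mop1F1 replicates had 2.14 and 2.79 times that mean. Against the highest parental library, Mo17 replicate 2, the 4 hybrid libraries had 2.71, 2.07, 1.69 and 2.21 times its level in the same order. Among the 15641 IDs with a mean of at least 10 CPM, all 4 hybrid libraries lay above all 4 parental libraries at 1440, or 9.21%. The gap of kn1, from the highest parental to the lowest hybrid library, was equalled or passed at 68 of these IDs, kn1 included, or 0.435%.

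**Figure D3:**
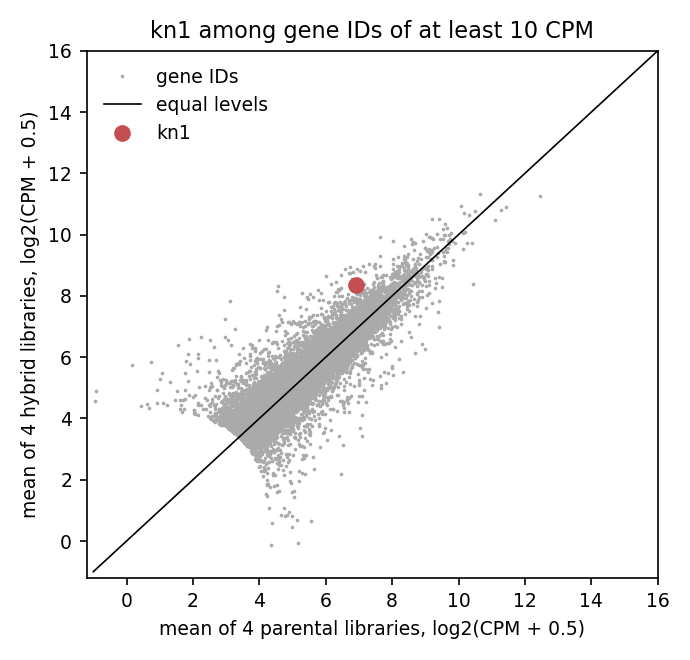
Mean TMM-scaled level of the 4 hybrid libraries against that of the 4 parental libraries, on the log2(CPM + 0.5) scale, for 15641 gene IDs with a mean of at least 10 CPM. The line marks equal levels, and kn1 (red) lies above it, in the upper edge of the cloud.

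Against the mid-parent, made by adding equal numbers of B73 and Mo17 counts, kn1 was 3.07-fold higher in WTF1 and 2.51-fold higher in mop1F1. The log2 fold changes were 1.62 ± 0.33 and 1.33 ± 0.33 (SE), with 95% intervals from 0.81 to 2.42 and from 0.53 to 2.12. Neither passed the adjustment (edgeR, adjusted p = 0.264 and 0.251, unadjusted p = 0.00256 and 0.0065). In these fits edgeR called 0 of 24942 IDs (0%) in either hybrid, 11.3% and 11.9% had an unadjusted p below 0.05, and DESeq2 called 931 and 1023 IDs, or 3.49% and 3.92% of those it tested. DESeq2 called kn1 in both hybrids (log2 fold changes 1.63 and 1.31, adjusted p = 0.000455 and 0.00876). With the mid-parent taken on the log scale in the fit of all 8 libraries, edgeR called it in both as well (1.62 and 1.33, adjusted p = 0.0112 and 0.0206), where 4.77% and 6.06% of IDs were called. In each hybrid, 14 of the 17 alternative settings left kn1 uncalled against the mid-parent. Those settings called almost no IDs, for example 0% with scaling by the total count. Without a filter they called 0.0372% of IDs in WTF1 and 0.0837% in mop1F1. They could thus hardly have called kn1, and the tally does not show that kn1 equals the mid-parent. A log2 fold change at or above that of kn1 was found for 5.47% of IDs in WTF1 and 7.79% in mop1F1. Hybrid reads were mapped to B73, per the names of the count tables, and how many reads of the Mo17 copy of kn1 were lost by this was not tested.

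Between the hybrids kn1 was not called. The log2 fold change of mop1F1 against WTF1 was -0.29 ± 0.28 (SE), and its 95% interval from -0.95 to 0.36 spans 0.519-fold to 1.285-fold (edgeR, adjusted p = 1). In this comparison 0.00816% of IDs were called. The libraries overlapped: both WTF1 libraries lay above mop1F1 replicate 1, and mop1F1 replicate 2 lay above WTF1 replicate 2. The log2 fold change was -0.073 and -0.52 without WTF1 replicate 1 or 2, and -0.16 and -0.50 without mop1F1 replicate 1 or 2, none of them called (edgeR, adjusted p = 0.666 to 1). Without both hybrid libraries numbered 1 the log2 fold change was 0.09. That setting compares 1 library of each hybrid, with the spread taken from the parental libraries. The interval leaves room for a fall of nearly 1 on the log2 scale, so the result does not show that the hybrids are alike.

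The 4 hybrid count tables carry the names GP1 and GP5, whose meaning the labels do not explain. In both hybrids replicate 1 is GP1 and replicate 2 is GP5. Averaged over the hybrids, kn1 did not differ between them beyond the spread: the log2 fold change of GP5 against GP1 was -0.0012 ± 0.25 (SE; 95% interval -0.61 to 0.61; edgeR, adjusted p = 0.999). Of all IDs tested, 2.4% were called in this comparison, and 0.143% were called higher in GP5. The quartiles of all IDs tested lay at -0.61 and 0.40. This mean near 0 came from opposite differences in the 2 hybrids. In WTF1 the TMM-scaled level was 408.9 CPM in GP1 and 312.7 CPM in GP5, a log2 difference of -0.39. In mop1F1 it was 255.5 CPM in GP1 and 333.6 CPM in GP5, a log2 difference of 0.38. The fitted value accordingly moved to 0.35 and 0.42 without WTF1 replicate 1 or 2, and to -0.46 and -0.38 without mop1F1 replicate 1 or 2. Each of these fits sets 1 GP5 library against 1 GP1 library of the same hybrid. Their spread comes from the parental libraries alone, so only the values are given.

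**Figure D4:**
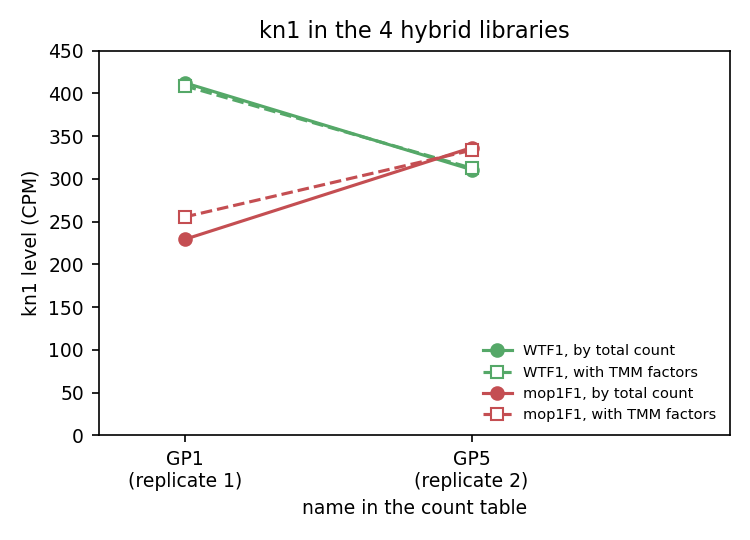
Level of kn1 in CPM in the GP1 and GP5 libraries of WTF1 (green) and mop1F1 (red), scaled by the total count (filled) or with TMM factors (open), 1 library per point. The lines cross: WTF1 is higher in GP1, and the GP5 libraries lie close together at 310.9 and 336.6 CPM by total count.

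Seen within each name, the mutant GP1 library had 0.625 times the kn1 level of the wild-type GP1 library, and the mutant GP5 library had 1.07 times that of the wild-type GP5 library (TMM scale). The difference between the GP contrasts of the hybrids, tested after the values were seen, was 0.77 ± 0.28 (SE) on the log2 scale and was not called (edgeR, adjusted p = 0.0873, unadjusted p = 0.0211). That fit gives each hybrid library its own coefficient and takes the spread from the parental libraries alone, and 18.3% of IDs were called in it. Opposite signs in the 2 hybrids were found at 40% of the 15641 IDs with a mean of at least 10 CPM. The GP1 libraries also held many ambiguous reads, which the counting step assigned to no gene because they overlapped several: 9.70% of records in WTF1 and 10.25% in mop1F1, against 1.29% to 2.35% in the other 6 libraries. The highest and the lowest kn1 level among the hybrids were thus both in libraries rich in ambiguous reads, and the part of these reads in the result was not tested. With ambiguous and other set-aside records counted in the total, the log2 difference of GP5 against GP1 was -0.24 in WTF1 and 0.70 in mop1F1, compared with -0.41 and 0.55 when scaled by the total over gene IDs, also without TMM factors.

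The replicates of kn1 were about as close as those of other genes. On the TMM scale the 2 libraries of a group differed 1.06-fold in B73, 1.15-fold in Mo17, 1.31-fold in WTF1 and 1.30-fold in mop1F1. The median over the 15641 IDs with a mean of at least 10 CPM was 1.14-fold, 1.10-fold, 1.38-fold and 1.37-fold in the same order. In the hybrids 56.8% and 56.9% of these IDs differed more between replicates than kn1 did, in B73 74.2% and in Mo17 35.9%. Across all 8 libraries, by contrast, kn1 varied more than most: its root mean square deviation from its own mean was 0.77 on the log2(CPM + 0.5) scale, against a median of 0.36, and 13.8% of IDs varied more.

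The pattern most like that of kn1 over the 8 libraries was sought among the other 15640 IDs with a mean of at least 10 CPM, as the smallest root mean square difference in centred log2(CPM + 0.5). The nearest was Zm00001d009753.RefGen_V4, with a difference of 0.19. It had 43.1 and 37.4 CPM in B73, 45.3 and 47.3 CPM in Mo17, 118.5 and 93.8 CPM in WTF1, and 80.4 and 109.7 CPM in mop1F1. The next was Zm00001d042998.RefGen_V4, with a difference of 0.20. It had 7.89 and 6.53 CPM in B73, 9.65 and 14.8 CPM in Mo17, 32.4 and 23.1 CPM in WTF1, and 21.1 and 37.0 CPM in mop1F1. In both IDs, as in kn1, every hybrid library lay above every parental library, WTF1 was higher in replicate 1 and mop1F1 in replicate 2. The median difference from kn1 over all these IDs was 0.86. The count tables do not pair IDs with names, so these IDs stay unnamed, and they were picked for their likeness, which gives no test.

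**Figure D5:**
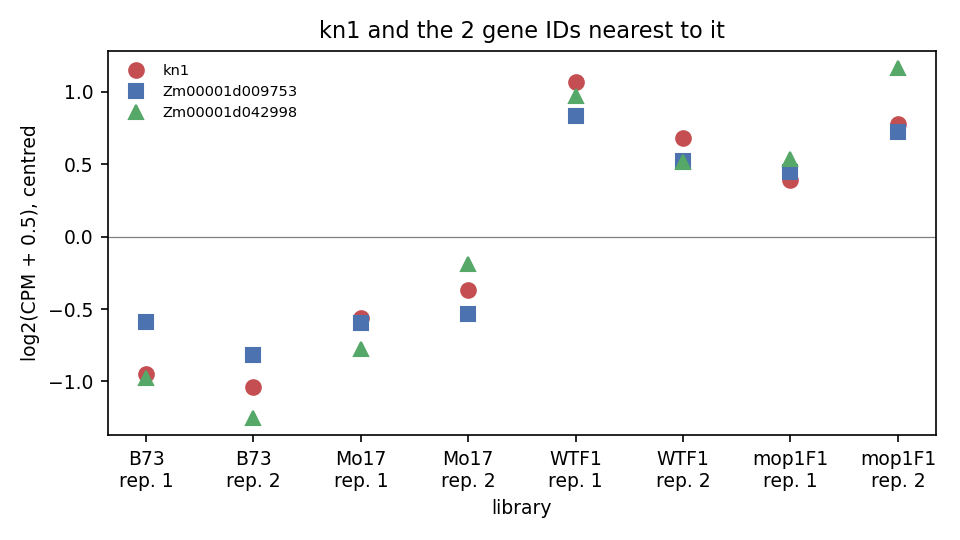
Level of kn1 and of the 2 gene IDs nearest to it in each library, on the log2(CPM + 0.5) scale with TMM factors and centred on the mean of the 8 libraries. All 3 lie below 0 in the 4 parental libraries and above 0 in the 4 hybrid libraries.

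Ordered by mean CPM, the groups ran from B73 through Mo17 and mop1F1 to WTF1. No step between neighbours in this order was called: Mo17 over B73 (edgeR, adjusted p = 0.316), mop1F1 over Mo17 (0.0769) and WTF1 over mop1F1 (1). Lists of other KNOX genes, BELL partners, ga2ox1, other meristem genes and markers of leaf, kernel and floral tissue could not be matched to the IDs and were not analysed here. The labelled tissue was therefore not checked against markers, and kn1, as the gene under study, gives no such check. The level of mop1 itself was not analysed here.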

How the data were processed

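RNA of 8 immature ear samples was sequenced, 2 libraries in each of 4 groups, grouped by sample title. One B73 library is replicate 2 by its title and 1 by the name of its count table. The authors deposited raw counts per gene ID. Per the submitters' processing notes, the tools were FastQC and Trimmomatic, HISAT2, HTSeq and also DESeq2, with no versions. The sources used here give neither the strand setting nor the annotation. The 5 summary rows, among them reads with several alignments, made up 13.9% to 29.8% of records and were left out of totals and tests.

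Counts were filtered by group (filterByExpr), scaled with TMM factors and tested with edgeR (version 4.0.16, with limma 3.58.1 under R 4.3.3) in a group-means design of all 8 libraries, with a threshold of 0.05 on Benjamini-Hochberg adjusted p. Standard errors are the log2 fold change over the root of F. To form the mid-parent, B73 and Mo17 libraries of equal number were thinned to equal totals (seed 11), added and fitted with the 4 hybrid libraries. The GP contrast added a term for GP5. Alternatives were other scalings and filters, DESeq2 1.42.0, a replicate block, fits of fewer groups and leaving out each library. The rule named kn1 and the 2 IDs nearest to it in centred log2(CPM + 0.5) among those with a mean of at least 10 CPM. The gene, lists and tests were chosen with earlier results of these data known.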

Additional observations from a re-analysis of the deposited data

How the results depend on the processing

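The level of kn1 in both hybrids was above that in each parent and above the mid-parent under every setting run, while the calls depended on the setting. DESeq2 called mop1F1 against Mo17 and both hybrids against the mid-parent (log2 fold changes 1.03, 1.63 and 1.31), and the mid-parent on the log scale did so for both hybrids (1.62 and 1.33). Scaling by the total count lost the call of WTF1 against Mo17 (1.29). Fits of the compared groups alone called B73 against Mo17 (-0.54) and lost WTF1 against Mo17 (1.36) and mop1F1 against B73 (1.61). No label ties the replicate numbers to a shared plant or day, and differences between replicates correlated across IDs at 0.284 between the hybrids and between -0.059 and 0.091 in the other pairs of groups. With the replicate number as a block, WTF1 against Mo17 (1.36, edgeR, adjusted p = 0.0777) and mop1F1 against B73 (1.59, adjusted p = 0.0553) lost their calls and the replicate term for kn1 was 0.027. No other call changed. With a term for GP5 in the hybrids instead, WTF1 against Mo17 (1.35, edgeR, adjusted p = 0.0314) and mop1F1 against B73 (1.59, adjusted p = 0.0326) kept their calls. In these fits 10.9% and 5.89% of IDs were called, and mop1F1 against WTF1 stayed uncalled at -0.29. Without both GP1 hybrid libraries, a setting chosen after seeing the data in which each lone hybrid library is assumed to vary like the parental ones, B73 against Mo17 (-0.53), mop1F1 against Mo17 (1.27) and the hybrids against the mid-parent (1.42 and 1.51) were called along with 38.4%, 37.9%, 36.6% and 47.6% of IDs, and mop1F1 against WTF1 turned to 0.090. The GP5 against GP1 value, -0.0012, kept its sign in only 8 of 15 alternative settings. It took the other sign with the total count (0.073), without a filter (0.0067) and with the replicate term in its place (0.027). The sign also turned when any 1 library of B73 or WTF1 was left out (0.0014 to 0.42). The cause of these changes was not tested, except that fits of fewer libraries estimate the spread from fewer samples.

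Leaving out each library in turn gave log2 fold changes of 1.72 to 2.12 for WTF1 against B73, 1.19 to 1.59 for WTF1 against Mo17, 1.39 to 1.81 for mop1F1 against B73, 0.86 to 1.28 for mop1F1 against Mo17, -0.52 to -0.073 for mop1F1 against WTF1, and -0.46 to 0.42 for GP5 against GP1. In the last, the range follows from which hybrid then carries the contrast. As a share of all records, kn1 had 83.5 CPM in B73, 114.7 CPM in Mo17, 267.5 CPM in WTF1 and 212.9 CPM in mop1F1. Every library had at least 1635 counts of kn1, and each group had 2 libraries.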
